A study of Rattus norvegicus with 16 samples.

Results

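The 9 genes described here encode aldehyde dehydrogenases: Aldh4a1, Aldh2, Aldh6a1, Aldh5a1, Aldh7a1, Aldh9a1, Aldh1l1, Aldh3a2 and Aldh1a1. They were taken by name from 22093 genes measured on 16 arrays, and all 9 were found. The probe set of each gene was selected on its mean level: of those with a single gene symbol, the one highest over all 16 arrays was used. The genes were chosen by name, with earlier results of these arrays known, among them the day 14 difference between diets of Aldh4a1. Its values at that time, and every count over the members that includes it, are therefore a description and support nothing by themselves.

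RNA came from 30 mg of the apex of the left ventricle of male RccHan Wistar rats, 7 to 8 weeks old. Phenformin belongs to the biguanides, drugs that lower blood glucose and act on mitochondrial respiration at complex I. One group ate a diet with 3000 ppm phenformin for 3 days and another ate untreated food over the same time. Of the other two groups, one ate the phenformin diet for 14 days and the other untreated food for 14 days. The labels name no engineered allele, and the animals differ by diet and by time. The protocol names 5 animals per group, of which 4 arrays per group, called biological replicates by the labels, were analysed here. Changes with diet are phenformin minus control, and changes in time are day 14 minus day 3. The tissue is a bulk sample, in which fewer cells of a type and less RNA per cell cannot be told apart.

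Aldehyde dehydrogenases oxidise aldehydes to carboxylic acids with NAD+ or NADP+ as the electron acceptor. Several sit in the mitochondrial matrix, where they complete the breakdown of amino acids or remove reactive aldehydes that arise from lipid peroxidation. The heart is rich in mitochondria, and the mitochondrial enzyme encoded by Aldh2 has been much studied there for its removal of such aldehydes.

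Every level below is the log2 of the deposited intensity, and every change is a difference of such levels with the standard error (SE) of a limma fit over all genes and all 16 arrays. A gene was called where the p adjusted over all 22093 genes (Benjamini-Hochberg) was under 0.05. Array medians over all 68842 probe sets lay between 4.94 and 5.13, and correlations between arrays over all genes lay between 0.989 and 0.995. Control day 3 replicates 2 and 3 stood farthest from the centre of a principal component plot. Cardiomyocyte markers were high, as the tissue label says: 9 of the 10 listed were measured, with Tnni3 at 13.5 and Mb at 19.9 as their lowest and highest mean levels. Precision is limited by having 4 arrays in a group.

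The promoters of 3 members whose day 14 control arrays all lay above the day 3 control arrays are printed here, because they share that order of the arrays. They come from RefSeq, build GRCr8, as 250 bases before and 50 bases after the gene's start, read 5′ to 3′ on the gene's own strand. That table held 8 of the 9 members; Aldh2 is named only. Aldh4a1 lies at chr5:157162939-157163238 on the plus strand, Aldh6a1 at chr6:109829676-109829975 on the minus strand and Aldh9a1 at chr13:82038429-82038728 on the plus strand. Capitals mark matches, on either strand, to AGGTCA (one arm of a nuclear receptor site), the E-box CACGTG, the GC box GGGCGG, the CCAAT box and the TATA box TATAAA.
Aldh4a1: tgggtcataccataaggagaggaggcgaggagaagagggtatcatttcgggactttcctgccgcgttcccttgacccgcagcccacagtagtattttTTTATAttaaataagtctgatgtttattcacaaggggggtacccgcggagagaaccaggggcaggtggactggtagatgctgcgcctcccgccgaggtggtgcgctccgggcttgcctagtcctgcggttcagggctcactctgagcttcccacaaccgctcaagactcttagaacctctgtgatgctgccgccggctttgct
Aldh6a1: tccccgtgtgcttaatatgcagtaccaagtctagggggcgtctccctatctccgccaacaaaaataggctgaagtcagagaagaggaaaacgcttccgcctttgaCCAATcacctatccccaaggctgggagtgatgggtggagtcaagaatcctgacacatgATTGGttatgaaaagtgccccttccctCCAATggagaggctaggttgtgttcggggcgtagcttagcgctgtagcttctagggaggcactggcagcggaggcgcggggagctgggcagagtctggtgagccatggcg
Aldh9a1: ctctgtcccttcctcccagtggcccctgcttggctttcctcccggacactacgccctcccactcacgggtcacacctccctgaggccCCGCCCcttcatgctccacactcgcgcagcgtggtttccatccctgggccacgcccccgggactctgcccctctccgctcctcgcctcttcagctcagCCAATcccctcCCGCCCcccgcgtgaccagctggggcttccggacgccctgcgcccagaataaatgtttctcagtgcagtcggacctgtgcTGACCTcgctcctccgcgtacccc
None of the marked matches overlapped another in these 3 sequences. The Aldh4a1 window held 1 match, a TATA box letter run at -153 from the start, and the same run was found in 14.3% of 27457 promoters. The AGGTCA run was found in 1 of 8 members, Aldh9a1, at 26 bases past the start, and in 15.7% of all promoters. The E-box, the letters bound by the clock activators, was in 0 of 8 members and in 6.65% of all promoters. GC boxes were in 4 of 8 members against 34.9% of promoters, and CCAAT boxes were in 6 of 8 against 37.7%. These matches describe the letters only and show no binding.

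The main pattern across the 4 groups was a high level of Aldh4a1 and Aldh2 in the day 14 controls. Both genes had all 4 day 14 control arrays above all 12 arrays of the other 3 groups, a separation found in 42 genes, or 0.19% of those measured. In the phenformin hearts of day 14 both genes lay within or close to the range of the day 3 arrays. The lower level with phenformin at day 14 and the higher level with time in controls are thus read from the same 4 control arrays.

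Aldh4a1 encodes the mitochondrial enzyme that oxidises pyrroline-5-carboxylate to glutamate, the last step of proline breakdown. At day 14 its level was 9.36, 9.54, 9.77 and 9.71 in phenformin hearts, against 10.14, 10.15, 9.99 and 10.17 in control hearts. At day 3 it was 9.47, 9.47, 9.64 and 9.53 in phenformin hearts, against 9.50, 9.80, 9.58 and 9.60 in control hearts. The diets did not overlap at day 14 and overlapped at day 3. By group mean the order was control day 14 (10.11 ± 0.0819, SD, n = 4), control day 3 (9.62 ± 0.128), phenformin day 14 (9.59 ± 0.187) and phenformin day 3 (9.53 ± 0.0808). The last 3 groups overlapped one another, and only the step down from the day 14 controls exceeded the spread.

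Aldh4a1 was 1.43-fold lower in phenformin hearts at day 14 (log2 change -0.52, SE 0.091, 95% confidence interval -0.71 to -0.32, limma adjusted p = 0.0466). It was the 1 member of 9 called lower at day 14, where 0.0498% of all genes were called lower. The call sat at the threshold: it was lost in 15 of the 16 fits that left out 1 array, all but the one without phenformin day 3 replicate 4. In those 16 fits the change lay between -0.58 and -0.44 and the adjusted p between 0.0474 and 0.122. Without the pair of arrays that stood apart in the principal component plot the change was -0.52 with an adjusted p = 0.0528. At day 3 the change was -0.09 (SE 0.091, adjusted p = 0.846).

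**Figure D1:**
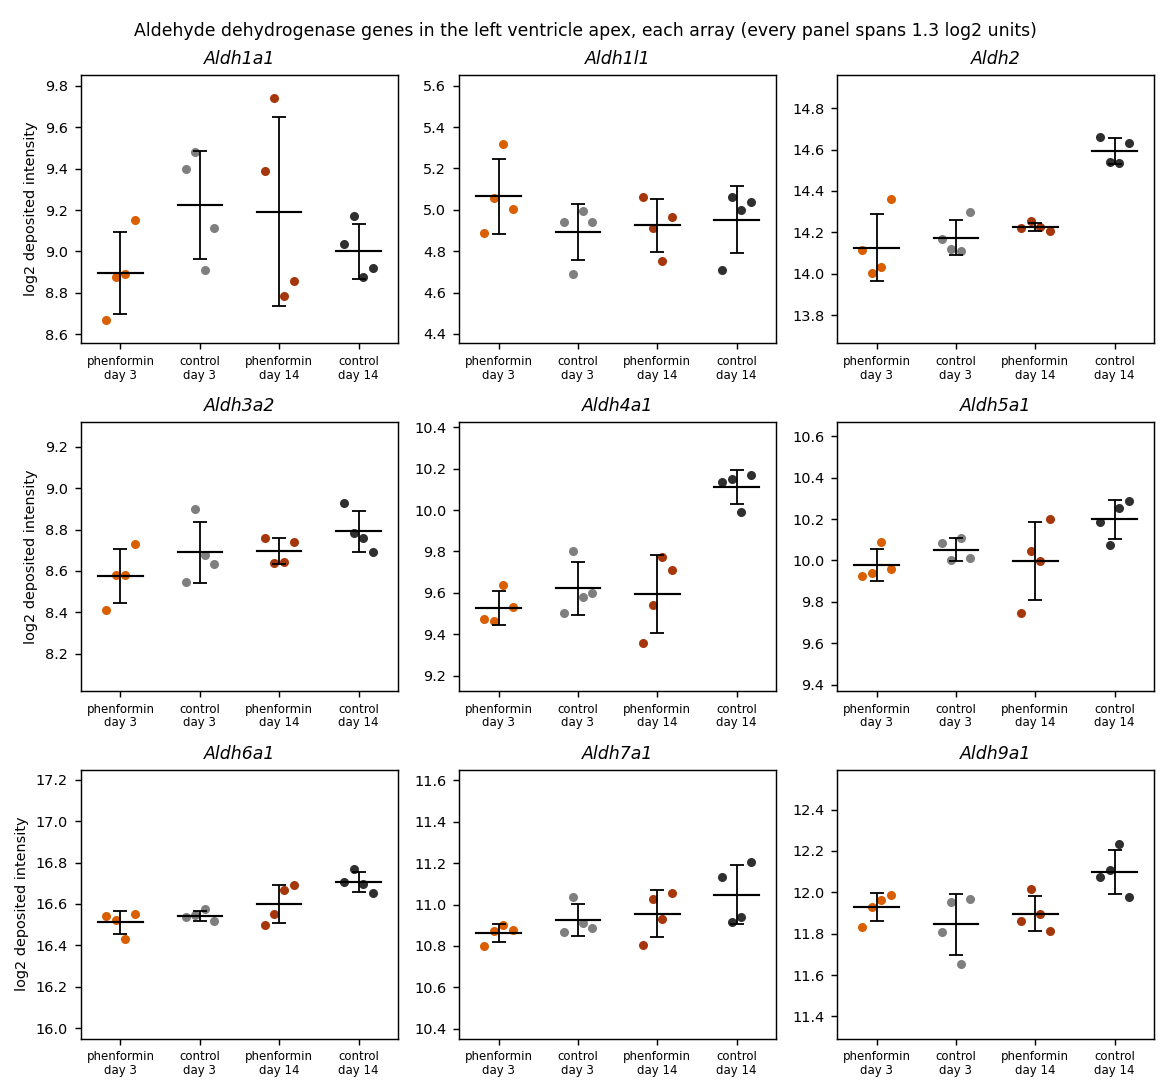
Log2 deposited intensity (vertical axis) of each of the 9 genes in each array, by group from left to right: phenformin day 3, control day 3, phenformin day 14 and control day 14. Points are arrays, bars are the group mean with the SD of 4 arrays, and every panel spans the same log2 range; the day 14 controls of Aldh4a1 (9.99 to 10.17) and Aldh2 (14.54 to 14.66) lie above every other array.

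The array carries a second, dimmer probe set that is also named Aldh4a1. At day 14 it gave 5.50, 5.49, 5.42 and 5.46 in phenformin hearts, against 5.54, 5.53, 5.55 and 5.40 in control hearts. At day 3 it gave 5.51, 5.23, 5.34 and 5.26 in phenformin hearts, against 5.55, 5.43, 5.27 and 5.29 in control hearts. All groups overlapped. Its day 14 change was -0.04 (SE 0.0969, 95% confidence interval -0.25 to 0.16), and its change with time in controls was 0.12 (SE 0.0969). The interval of its day 14 change does not reach the -0.52 of the brighter probe set, so the probe sets with this name gave different results. The dimmer one had a mean level of 5.42 over the 16 arrays, against 9.71 for the brighter one. The array medians over all probe sets, named or not, were 4.94 to 5.13. Whether it measures the same transcript was not tested.

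With the mean of both probe sets in place of the brighter one, the day 14 change of Aldh4a1 was -0.28 with an adjusted p = 0.124, and the gene was not called. RefSeq places Aldh4a1 on the plus strand. Of the 50 named probe sets of chromosome 5 nearest in number to the brighter probe set, 49 named genes of the plus strand. Of the 50 nearest to the dimmer one, 1 named a gene of the plus strand and 49 named genes of the minus strand. No source used here gives the strand that the dimmer probe set reads.

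**Figure D2:**
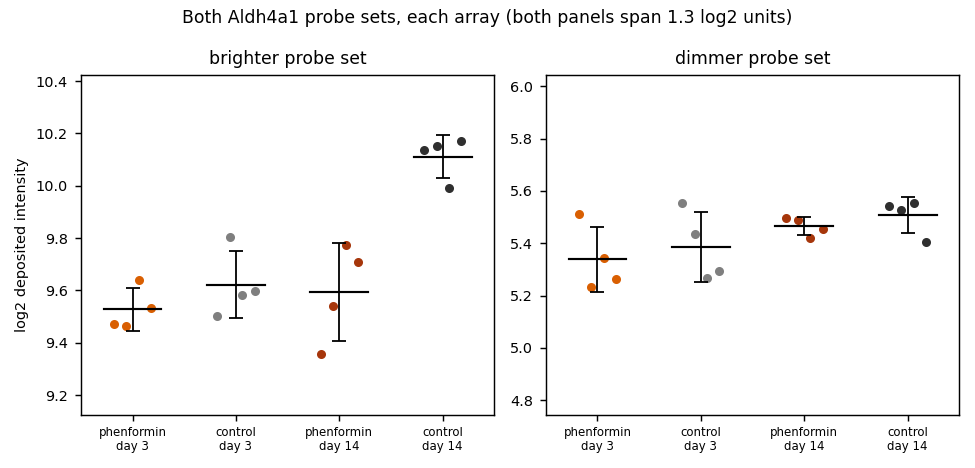
Log2 deposited intensity (vertical axis) of the brighter (left) and the dimmer (right) Aldh4a1 probe set in each array, by group. Points are arrays and bars are the mean with the SD of 4 arrays; the day 14 change is -0.52 in the brighter probe set and -0.04 in the dimmer one.

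Aldh2 encodes the mitochondrial enzyme that oxidises acetaldehyde and reactive aldehydes from lipid peroxidation. At day 14 its level was 14.22, 14.25, 14.22 and 14.21 in phenformin hearts, against 14.66, 14.54, 14.54 and 14.63 in control hearts. At day 3 it was 14.11, 14.00, 14.03 and 14.36 in phenformin hearts, against 14.17, 14.12, 14.11 and 14.30 in control hearts. As for Aldh4a1, the diets lay apart at day 14 and overlapped at day 3. The group means were 14.23 ± 0.0196 in phenformin and 14.59 ± 0.0635 in control hearts at day 14, and 14.13 ± 0.163 and 14.17 ± 0.0864 in phenformin and control hearts at day 3 (SD, n = 4 each). The day 14 phenformin arrays were the tightest of the 4 groups.

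At day 14 the Aldh2 change was -0.37 (SE 0.0743, 95% confidence interval -0.52 to -0.21), a level 1.29-fold lower that missed the threshold with a limma adjusted p = 0.0679. At day 3 it was -0.05 (SE 0.0743, adjusted p = 0.916). Leaving out phenformin day 3 replicate 4, the highest array of its group, gave a limma adjusted p = 0.0405 for the day 14 change. That array is not in the day 14 comparison: the change stayed at -0.37, with an SE of 0.0597. Across the 16 fits without 1 array the day 14 change lay between -0.38 and -0.34 and the adjusted p between 0.0405 and 0.176. In 15 of these fits Aldh2 still missed the threshold. Aldh2 and Aldh4a1 were the 2 members of 9 with all 4 phenformin arrays below all 4 controls at day 14, where 3.09% of all genes had that order.

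Aldh6a1 encodes the mitochondrial methylmalonate semialdehyde dehydrogenase of valine and thymine breakdown. Its day 14 level was 16.50, 16.55, 16.66 and 16.69 in phenformin hearts, against 16.70, 16.77, 16.70 and 16.65 in control hearts. Its day 3 level was 16.54, 16.52, 16.43 and 16.55 in phenformin hearts, against 16.54, 16.54, 16.57 and 16.52 in control hearts. The diets overlapped on both days, with changes of -0.10 at day 14 and -0.03 at day 3 (SE 0.0561 each). The gene lies high on the deposited scale, whose upper end is a log2 of 19.9. Its residual SD was 0.06, against a median of 0.106 among the 160 genes of mean level above 16 and 0.168 over all genes.

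Aldh5a1 encodes the mitochondrial succinic semialdehyde dehydrogenase, the last enzyme of breakdown of the transmitter GABA. Its day 14 level was 9.745, 10.044, 9.997 and 10.202 in phenformin hearts, against 10.187, 10.073, 10.253 and 10.285 in control hearts. The groups overlapped, and the lowest array was phenformin day 14 replicate 1, which was also the lowest for Aldh4a1. The day 14 change was -0.20 (SE 0.0851), with an unadjusted p = 0.0297 and an adjusted p = 0.394. At day 3 levels ran between 9.926 and 10.091 in phenformin hearts and between 10.004 and 10.110 in control hearts, with a change of -0.07.

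Aldh7a1 encodes antiquitin, which oxidises the semialdehyde of lysine breakdown. Its levels at day 14 were 10.80, 11.03, 10.93 and 11.06 in phenformin hearts, against 11.13, 10.91, 10.94 and 11.20 in control hearts. These groups overlapped. The change was -0.09 at day 14 and -0.06 at day 3 (SE 0.0778 each), and neither was called. At day 3 levels ran between 10.80 and 10.90 in phenformin hearts and between 10.87 and 11.04 in control hearts.

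Aldh9a1 encodes the trimethylaminobutyraldehyde dehydrogenase of carnitine synthesis. In phenformin hearts at day 14 it measured 11.86, 12.01, 11.90 and 11.82, against 12.08, 12.11, 12.23 and 11.98 in control hearts. The day 3 levels were 11.83, 11.93, 11.96 and 11.99 in phenformin hearts, against 11.81, 11.96, 11.65 and 11.97 in control hearts. A single phenformin array, replicate 2, reached into the range of the day 14 controls. The day 14 change was -0.20 (SE 0.0793, unadjusted p = 0.0208, adjusted p = 0.36), while that of day 3 was 0.08 (SE 0.0793).

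Aldh3a2 encodes the fatty aldehyde dehydrogenase of the endoplasmic reticulum, whose loss in humans causes Sjögren-Larsson syndrome. Its changes were -0.10 at day 14 and -0.11 at day 3 (SE 0.0851 each), and its diets overlapped on both days. Aldh1l1 encodes the cytosolic 10-formyltetrahydrofolate dehydrogenase of folate metabolism. Its changes were -0.03 at day 14 and 0.18 at day 3 (SE 0.112 each). The direction at day 14 turned to 0.041 when the quantile normalisation was repeated. This gene is the dimmest of the members by rank within the array, at the 29.9th percentile of mean level.

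Aldh1a1 encodes a cytosolic enzyme that makes retinoic acid from retinal. Day 14 levels were 9.39, 9.74, 8.78 and 8.85 in phenformin hearts, against 9.04, 9.17, 8.87 and 8.92 in control hearts. Day 3 levels were 8.67, 8.88, 8.89 and 9.15 in phenformin hearts, against 9.40, 9.48, 8.91 and 9.11 in control hearts. The phenformin arrays of day 14 fell into a high and a low pair that spanned the whole control range. The changes were 0.19 at day 14 and -0.33 at day 3 (SE 0.182 each, adjusted p = 0.743 and 0.639), with the widest intervals of the 9 genes.

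Over the 9 genes at day 3, 0 were called by limma and 0 had an unadjusted p under 0.05, where 0.566% and 9.38% of all genes did. Changes ran between -0.33 and 0.18, with a median of -0.06 against 0.000136 over all genes. Of the 9, 7 lay below 0, as did 49.9% of all genes. At day 14 the median was -0.10 against -0.03 over all genes, and 8 of 9 lay below 0, as did 57.8% of all genes. Aldh2, Aldh4a1, Aldh5a1 and Aldh9a1, 4 of 9, were lower with an unadjusted p under 0.05, against 6.96% of all genes. That count includes Aldh4a1, whose day 14 difference was known when the members were chosen, and is a description.

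**Figure D3:**
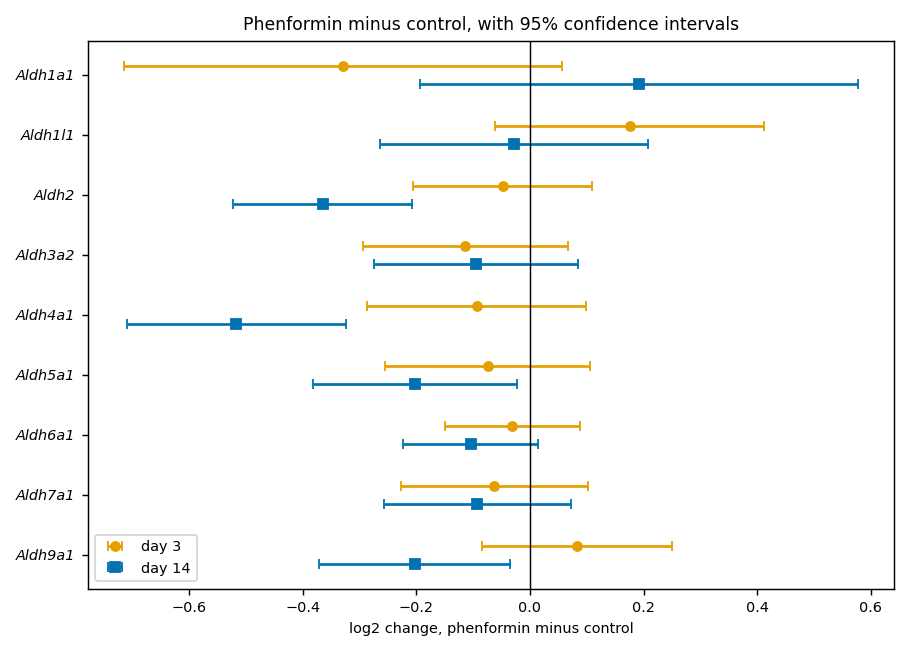
Log2 change, phenformin minus control (horizontal axis), of the 9 genes at day 3 (circles) and day 14 (squares), with 95% confidence intervals of the limma fit. At day 14 Aldh4a1 (-0.52) and Aldh2 (-0.37) lie farthest below 0; at day 3 every interval includes 0.

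Averaged over both days, Aldh4a1 was lower with phenformin by limma (log2 change -0.31, SE 0.0643, adjusted p = 0.0293), the 1 member of 9 called lower where 0.883% of genes were. This average shares all its arrays with the comparisons above. The call ended when control day 3 replicate 2 or 3, control day 14 replicate 1 or 4, phenformin day 3 replicate 1, 2 or 4, or phenformin day 14 replicate 2 was left out, 8 of the 16 omissions. Without phenformin day 3 replicate 4, Aldh2 was called in its place (-0.25, adjusted p = 0.025). For Aldh2 the average was -0.21 (SE 0.0526, adjusted p = 0.0678).

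The difference between the day 14 and day 3 effects was -0.42 for Aldh4a1 (SE 0.129, unadjusted p = 0.00457, adjusted p = 0.456), -0.32 for Aldh2 (SE 0.105, unadjusted p = 0.0081) and -0.29 for Aldh9a1 (SE 0.112, unadjusted p = 0.0213). These 3 of 9 had an unadjusted p under 0.05, against 3.88% of all genes in that direction. With limma 0 of 9 members, and 0% of all genes, passed the adjusted threshold, so no member was shown to respond differently on the 2 days. Aldh1a1 had the opposite sign, 0.52 (SE 0.258, unadjusted p = 0.0599).

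In control hearts 4 members were higher at day 14 than at day 3 with no overlap between the days: Aldh4a1, Aldh2, Aldh6a1 and Aldh9a1. These 4 of 9 compare with 2.52% of all genes. The change was 0.49 for Aldh4a1 (SE 0.091, adjusted p = 0.0794), 0.42 for Aldh2 (SE 0.0743, adjusted p = 0.0659), 0.25 for Aldh9a1 (SE 0.0793, adjusted p = 0.277) and 0.16 for Aldh6a1 (SE 0.0561, adjusted p = 0.344). By limma 0 of 9 were called, as were 0% of all genes. The same 4 had an unadjusted p under 0.05 in this direction, against 5.07% of all genes. The median over the 9 was 0.15 against 0.01 over all genes, and 8 of 9 lay above 0, as did 54.3% of genes.

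Aldh1a1 was the single member below 0, at -0.23 (SE 0.182). With dim genes dropped, which leaves fewer genes to adjust over, Aldh2 passed the threshold under the filter at the 25th percentile of mean level (adjusted p = 0.0494). Both Aldh2 and Aldh4a1 passed under the filter at the 50th percentile (adjusted p = 0.0346 and 0.0397). Over the limma fits of all 30 settings the adjusted p reached 0.41 for Aldh2 and 0.337 for Aldh4a1. With all probe sets tested it was 0.337 for both, and with the mean of its probe sets it was 0.12 for Aldh4a1.

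In phenformin hearts the days overlapped in all members: 0 of 9 had every day 14 array above or below every day 3 array, where 2.09% of genes lay apart upwards and 2.24% downwards. The change was 0.07 for Aldh4a1 (SE 0.091), 0.10 for Aldh2 (SE 0.0743), 0.09 for Aldh6a1 (SE 0.0561) and -0.03 for Aldh9a1 (SE 0.0793). By limma 0 of 9 passed, and 0 of 9 had an unadjusted p under 0.05, where 0.00453% and 7.79% of all genes did. The members' changes ran between -0.14 for Aldh1l1 and 0.30 for Aldh1a1, with a median of 0.09 against -0.01 over all genes. The difference between this change in time and that in controls is the same quantity as the difference between the day 14 and day 3 effects, given above.

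**Figure D4:**
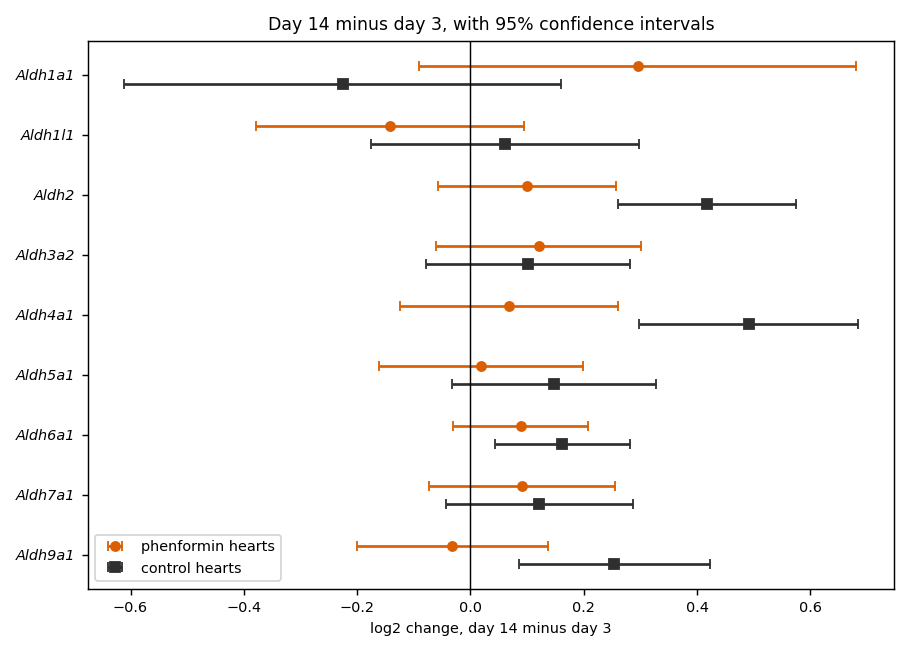
Log2 change, day 14 minus day 3 (horizontal axis), of the 9 genes in phenformin hearts (circles) and in control hearts (squares), with 95% confidence intervals of the limma fit. The control changes of Aldh4a1 (0.49) and Aldh2 (0.42) lie farthest above 0, while every interval of the phenformin hearts includes 0.

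Aldh4a1 and Aldh2 were high together in the day 14 controls and did not vary together within groups. Over the 16 arrays, which share the 4 groups, Pearson's r of their levels was 0.806 and Spearman's rho was 0.615. Over the 12 arrays other than the day 14 controls r was -0.00364, and with the group means removed it was -0.035. The pooled value therefore rests on the day 14 controls. Aldh7a1 behaved otherwise: its r with Aldh4a1 was 0.709 over 16 arrays and 0.61 with the group means removed, and its r with Aldh5a1 was 0.719 and 0.609. These values are descriptions of 16 arrays that also share preparation. Over all 36 pairs of members the median r was 0.355, and 0.0354 with the group means removed.

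The genes most like Aldh4a1 by Pearson's r over the 16 arrays were Ivd (0.898), Agpat1 (0.891), Epn1 (0.865), Tmem69 (0.831) and Btbd2 (0.83). Those most like Aldh2 were Ecsit (0.875), Slc25a21 (0.858), Gabarap (0.85), Psmc2 (0.845) and Ivd (0.834). The median r over all genes was 0.0438 for Aldh4a1 and 0.0373 for Aldh2. With the group means removed, r with Aldh4a1 ran between 0.221 for Tmem69 and 0.69 for Epn1. That with Aldh2 ran between 0.174 for Ivd and 0.798 for Gabarap. Ivd, the isovaleryl-CoA dehydrogenase of leucine breakdown, stood on both lists. At day 14 it ran between 13.42 and 13.75 in phenformin hearts, against 13.83 to 13.92 in control hearts, with a change of -0.35 (SE 0.0755, adjusted p = 0.0941). Slc25a21, a mitochondrial carrier of oxodicarboxylates, ran between 6.68 and 7.19 in phenformin hearts at day 14, against 7.26 to 7.80 in control hearts (change -0.68, SE 0.136, adjusted p = 0.0679). The smallest day 14 change among the like genes was that of Psmc2, at -0.07 (SE 0.0523, limma adjusted p = 0.652). Since these genes were picked for their likeness to the members, their day 14 differences are no separate evidence.

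**Figure D5:**
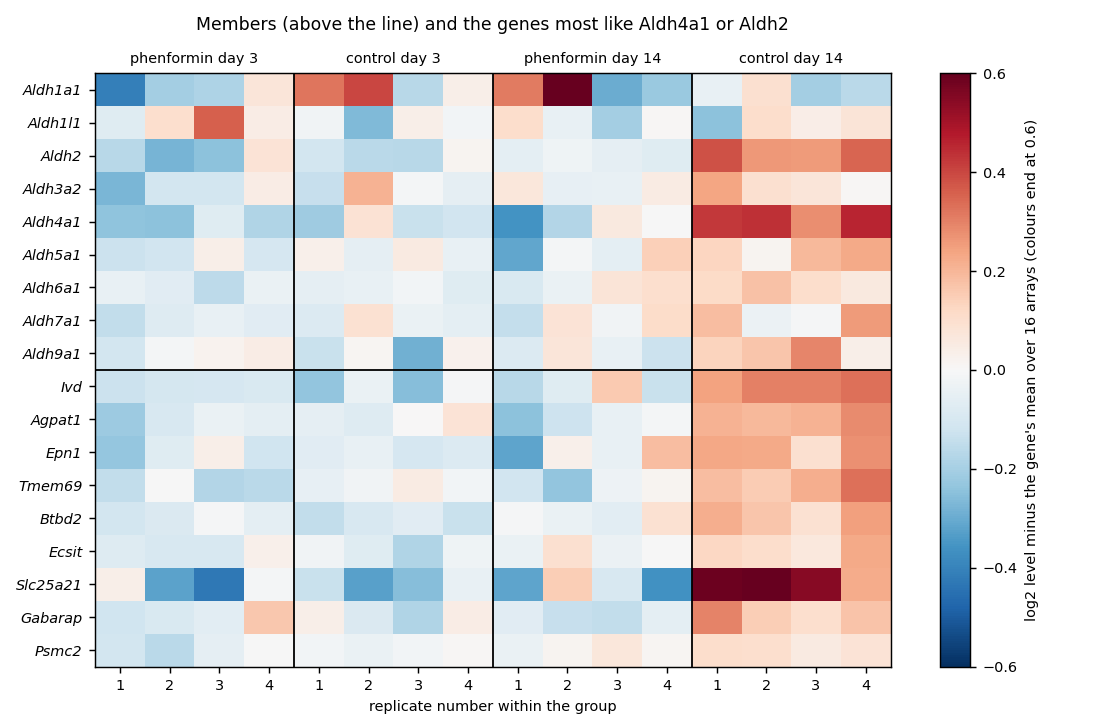
Each cell is the log2 level of a gene (vertical axis) in one array minus that gene's mean over 16 arrays, with arrays along the horizontal axis by group and replicate number; red is above and blue below the mean, and colours end at 0.6. The 9 members lie above the line and the genes most like Aldh4a1 or Aldh2 below it. The day 14 controls at the right all lie above the mean for Aldh4a1, Aldh2 and all 9 genes below the line. They also do so for Aldh3a2, Aldh5a1, Aldh6a1 and Aldh9a1.

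Of 12 further aldehyde dehydrogenase genes listed, 9 were measured by a probe set of a single symbol, and limma called 0 of the 9 at day 3 and 0 at day 14. With 0.566% of all genes called at day 3 and 0.0724% at day 14, a count of 0 among so few genes says nothing particular about them. Their median change was 0.03 at day 14 and -0.03 at day 3, and that of day 14 against day 3 in controls was -0.07. The smallest p-values at day 14 were those of Aldh3a1, a detoxifying enzyme best known from the cornea (change -0.21, SE 0.113, adjusted p = 0.52), and Aldh1a3, a retinoic acid producing enzyme (0.13, SE 0.0846, adjusted p = 0.606). Aldh18a1 acts in the synthesis of proline, while Aldh4a1 acts in its breakdown. Its levels at day 14 lay between 7.31 and 7.67 in phenformin hearts, against 7.21 to 7.68 in control hearts. Aldh8a1 reached 6.22 in control day 3 replicate 3 and 4.59 to 4.93 in the other day 3 controls.

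Genes of the pathways that the members serve were counted on lists drawn up for this comparison, against the same shares of all genes called: 0.566% at day 3 and 0.0724% at day 14. Of 14 measured genes of proline and glutamate metabolism, 0 were called on either day, and the median change at day 14 was -0.03. Glul, which makes glutamine from glutamate, changed by -0.55 at day 14 (SE 0.175, adjusted p = 0.255), and the aspartate and glutamate carrier Slc25a12 by -0.19 (SE 0.0725, adjusted p = 0.336). Of 17 genes of valine and propionate breakdown, around Aldh6a1, 0 were called on either day. At day 14, 13 of them lay below 0 with a median of -0.10, where 57.8% of all genes lay below 0 with a median of -0.03. Dbt, a subunit of the branched-chain keto acid dehydrogenase, changed by -0.50 at day 14 (SE 0.119, adjusted p = 0.126), with levels of 15.07 to 15.18 in phenformin hearts, against 15.26 to 16.02 in control hearts. Acadsb, a short branched-chain acyl-CoA dehydrogenase, changed by -0.73 (SE 0.236, adjusted p = 0.262), and by -0.57 with the mean of its probe sets (limma adjusted p = 0.207). At day 3 Acadsb changed by -0.72 (SE 0.236, adjusted p = 0.253). Averaged over both days it was called lower by limma (-0.72, SE 0.167, adjusted p = 0.0448), where 1.21% of all genes were called in either direction, and Dbt was not (adjusted p = 0.0674).

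For the alcohol and reactive aldehyde list, around Aldh2, 0 of 17 were called on either day, and the median at day 14 was -0.02. Gsta4, a glutathione transferase that conjugates hydroxynonenal, changed by 0.35 at day 14 (SE 0.106, adjusted p = 0.219) and the alcohol dehydrogenase gene Adh7 by 0.27 (SE 0.1, adjusted p = 0.342). At day 3 Gsta4 changed by 0.39 (SE 0.106, adjusted p = 0.142). Averaged over both days it was called higher by limma (0.37, SE 0.0746, adjusted p = 0.0243), where 1.21% of all genes were called, and Adh7 was not (adjusted p = 0.327). The GABA list, around Aldh5a1, had 0 of 11 called and a day 14 median of 0.02. Slc6a6, a taurine transporter, changed by 0.32 (SE 0.158, adjusted p = 0.488) and Akr7a2, an aldo-keto reductase of succinic semialdehyde, by -0.15 (SE 0.0885, adjusted p = 0.572).

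The lysine and choline list, around Aldh7a1, had 0 of 10 called, with 9 below 0 at day 14, where 57.8% of all genes were, and a median of -0.04. Its smallest p-values were those of Dlst, a subunit of the oxoglutarate dehydrogenase complex (change -0.16, SE 0.0681, adjusted p = 0.388), and Dhtkd1, its relative in lysine breakdown (-0.14, SE 0.097, adjusted p = 0.648). In carnitine synthesis, around Aldh9a1, 0 of 5 genes were called, and in the folate cycle, around Aldh1l1, 0 of 14. The serine hydroxymethyltransferase genes stand on both of these lists and had opposite signs at day 14: Shmt2, the mitochondrial form, changed by -0.21 (SE 0.0746, adjusted p = 0.302) and Shmt1, the cytosolic form, by 0.21 (SE 0.078, adjusted p = 0.336).

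The fatty aldehyde and ether lipid list, around Aldh3a2, had 0 of 10 called. Sgpl1, the sphingosine phosphate lyase that releases a fatty aldehyde, changed by 0.25 (SE 0.0996, adjusted p = 0.363) and the cytochrome gene Cyp4f6 by 0.30 (SE 0.122, adjusted p = 0.381) at day 14. Of 14 genes of retinoid metabolism, around Aldh1a1, 1 was called. Lrat, which esterifies retinol for storage, was lower with phenformin at day 3 (log2 change -0.85, SE 0.164, adjusted p = 0.0251). Its day 3 levels were 7.31 to 7.88 in phenformin hearts, against 8.35 to 8.77 in control hearts, without overlap. The Lrat call was lost when all probe sets were tested (adjusted p = 0.104) and without control day 3 replicate 1, 2 or 3 or any one of the phenformin day 3 arrays, with adjusted p of 0.0525 to 0.099. Without both arrays that stood apart its change was -0.70 with an adjusted p = 0.42. At day 14 its change was 0.26 (SE 0.164, adjusted p = 0.593). By group mean the day 3 controls stood high at 8.53, against 7.68 in phenformin hearts at day 3, 7.93 in those of day 14 and 7.67 in the day 14 controls. The day 3 difference thus shares its high control arrays with the change in time in controls (-0.86, SE 0.164, limma adjusted p = 0.0794).

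Markers of blood differed between the diets at day 14, where Aldh4a1 and Aldh2 differed, but the platelet and red cell lists were unlike in the other comparisons. All 7 measured platelet markers of 8 listed lay below 0 at day 14, with a median change of -0.50, and their summed intensity was 277 to 452 in phenformin hearts, against 461 to 1129 in control hearts. In control hearts all 7 lay above 0 for day 14 against day 3, with a median of 0.38. At day 3 the platelet markers had a median diet change of -0.04, with 5 below 0 and 2 above. All 7 measured red cell markers of 10 listed lay below 0 at day 14, with a median of -0.78 and a summed intensity of 417400 to 774600 in phenformin hearts, against 699300 to 1192000 in control hearts. At day 3 the red cell markers all lay below 0 too, with a median of -0.47. Limma called 0 of these 7 there, and 2 had an unadjusted p under 0.05, where 0.566% and 9.38% of all genes did. The day 3 changes of Aldh4a1 and Aldh2 were -0.09 and -0.05. With time in controls the red cell median was -0.04, with 3 above 0 and 4 below. Limma called 0 of these 14 markers at day 14, where 0.0724% of all genes were called. All 14 were lower with an unadjusted p under 0.05, against 6.96% of all genes. No marker was at 0: the lowest means were 4.35 for Gp6 among platelet markers and 5.75 for Epb42 among red cell markers. Their part in the differences of Aldh4a1 and Aldh2 was not tested.

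Several cardiomyocyte markers lay too near the upper end of the scale for their sum to show a change. Of the 9, 4 had mean levels above 19, where the arrays end at 19.93, and made up 86.7% of the summed intensity. That sum was 3815000 to 3870000 in phenformin hearts at day 14, against 3788000 to 3919000 in control hearts. Of the 2 markers at or below a mean of 16, Myl2, a myosin light chain, changed by 0.02 (SE 0.0463) at day 14 and Tnni3, cardiac troponin I, by 0.03 (SE 0.055). Between these and the brightest lay Tnnt2, Ryr2 and Ckm, with means of 17.3, 17.28 and 17.13. At day 14 Tnnt2 changed by 0.001 (SE 0.0426) and Ryr2 by 0.09 (SE 0.0592). Ckm had the largest change of the list, -0.16 (SE 0.0553, limma unadjusted p = 0.00964, adjusted p = 0.281). At day 3, where no member was called, the 10 fibroblast markers all lay below 0 with a median of -0.74. Limma called 0 of them there, against 0.566% of all genes, and 6 had an unadjusted p under 0.05, against 9.38%. Their summed intensity was then 104500 to 148200 in phenformin hearts, against 152600 to 187900 in control hearts. The 10 macrophage markers also all lay below 0 at day 3, with a median of -0.25. At day 14 the fibroblast markers had a median diet change of -0.18, with 8 below 0 and 2 above. This was the direction of Aldh4a1 and Aldh2, and that of 57.8% of all genes. Limma called 0 of the 10 at day 14, and 0 were lower with an unadjusted p under 0.05, against 0.0724% and 6.96% of all genes. For day 14 against day 3 in controls their median was -0.52, with 8 below 0 and 2 above, the direction opposite to that of Aldh4a1 and Aldh2. Aldh1a1 changed by -0.33 with diet at day 3, 0.19 at day 14 and -0.23 with time in controls. The part of fibroblasts in the changes of the members was not tested.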

How the data were processed

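Each array was prepared from 300 ng of total RNA of the left ventricle apex and hybridised to an Affymetrix whole-transcript array, per the labels' protocols. The authors deposited 1 intensity per probe set, and the submitters' processing notes name RMA without a version. The values are on a linear scale, with array maxima of 999968 to 999974, and no source used here says how they reached it, so a fold refers to the deposited scale. Depth does not apply to arrays.

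The log2 of the deposited intensity was taken with no offset, filter or further normalisation. Of 68842 probe sets, 23446 had 1 gene symbol in the platform annotation, 505 had several and 44891 were unnamed here. The brightest probe set by mean log2 stood for each symbol, which gave 22093 genes; more than 1 probe set was available for 1182. The probe set named Aldh3b2 and Aldh3b3 was not used.

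Groups came from the sample labels. Limma 3.58.1 in R 4.3.3, with files read by data.table (1.17.8), fitted 1 mean per group over 16 arrays, with eBayes and a mean-variance trend. Two-sided p-values were adjusted by Benjamini-Hochberg over all 22093 genes in each of 6 comparisons, which share arrays. They measure the spread between arrays that the labels call biological replicates. The fit was tested on simulated data. Promoters and figures were handled in Python 3.11.15 with pandas 2.3.3 and matplotlib 3.10.9.

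The named genes were all members, the 2 genes of each pathway list with the largest change among those called at either day or else the smallest p at day 14, and the 5 genes of highest r with Aldh4a1 and with Aldh2. Aldh18a1 and Aldh8a1 were added after their values were seen. The members and lists were chosen with earlier results of these data known.

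Replicate numbers were not taken as pairs: the correlation of deviations between arrays of the same number lay between -0.185 and 0.0804 at day 3 and between -0.127 and 0.113 at day 14, with 1 of the 4 day 14 pairs above 0.1. Alternatives changed the probe set choice, the normalisation, the offset, the filter, the variance model, the weights, the block and the arrays in the fit.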

Additional observations from a re-analysis of the deposited data

Results flagged for a closer look

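Of 152 groups of 4 arrays, made of the members and the other genes named in the text, 4 held an array whose gap to the next, as a share of the group's range, was past Dixon's 95% critical value for 4 arrays. Chance gives such a gap in about 5% of groups. None of the 4 belongs to a member. Shmt1 was 5.99 in control day 3 replicate 4 and 6.25 in the nearest array, a share of 0.899. Ecsit was 11.00 in phenformin day 3 replicate 4 and 10.89 in the nearest array (0.865), and Tmem69 was 8.73 in phenformin day 3 replicate 2 and 8.59 in the nearest (0.85). Agpat1 was 10.50 in control day 14 replicate 4 and 10.42 in the nearest array (0.831).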

How the results depend on the processing

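The count of members called lower or higher was 0 at day 3, 0 for the difference between days and 0 for time in phenformin hearts under all 30, 29 and 30 settings run. At day 14 the 1 call, Aldh4a1, became 0 with the mean of a gene's probe sets (change -0.28, adjusted p = 0.124), all probe sets tested (-0.52, 0.194), array medians aligned (-0.51, 0.0649), no mean-variance trend (-0.52, 0.0851), array weights (-0.50, 0.064), only the 8 arrays compared (-0.52, 0.161), and without control day 3 replicates 2 and 3, which stood apart and were picked with the data in view (-0.52, 0.0528). With the replicate block it was also 0 (-0.52, 0.081); the numbers do not pair the arrays. It became 2, with Aldh2, when genes under the 50th percentile were dropped. Without 1 array the count lay between 0 and 2 and the change between -0.58 and -0.44. For the mean over both days the count was 0 with the mean of probe sets, all probe sets and without the arrays that stood apart, 2 with the 50th percentile filter, and 0 to 1 without 1 array. For time in controls it was 1 with the 25th and 2 with the 50th percentile filter. The cause was not tested, beyond the number of genes tested in the filters and the number of arrays in the omissions. The reversed directions were those of Aldh1l1: its day 14 change was 0.041 with quantile normalisation repeated, 0.029 with normal scores of ranks, and -0.11 to 0.029 in fits without 1 array, while its change with time in controls lay between -0.0052, without control day 3 replicate 2, and 0.14 in such fits. Of 1696 values for single genes, 1640 kept direction and side, 43 missed the threshold, 7 newly passed it and 6 reversed. Over all genes the calls at day 3 were 125, with 3 to 181 in alternatives and 22 to 149 without 1 array; at day 14 they were 16, with 1 to 60 and 3 to 29; for the mean of both days 267, with 33 to 413; for time in controls 0, with up to 35; and for time in phenformin hearts 1, with 0 to 3. At day 14 the changes of Aldh5a1 and Aldh9a1 did not pass over all genes with 4 arrays per group.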
